A study of Mus musculus with 10 samples.

Results

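The lysozymes and secreted antimicrobial genes described here are Lyz1, Lyz2, Slpi, Wfdc17, Lcn2 and Saa3, 6 of the 18292 gene symbols listed in 10 single cell RNA libraries of sorted mouse microglia. They were taken by symbol, and Lyz2, Slpi and Wfdc17 were chosen by their higher counts in cultured than in adult cells of these same libraries. Cultured levels against adult levels are therefore given as a description, without a test, for all 6 genes. The tests compare the cultured groups with each other.

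All libraries came from C57BL/6 mice, and the labels give no further allele or agent. Live cells that were CD11b high and CD45 intermediate were sorted by FACS and sequenced with a 10x Genomics kit that counts the 3′ ends of transcripts by unique molecular identifiers (UMIs). Each of 5 groups had 2 libraries: microglia taken directly from brains of young adult mice (adult), microglia from mixed glial cultures after 3 weeks (in vitro), and microglia from brain slices kept in culture for 1 day, for 1 week or for 3 weeks. Slices were coronal forebrain sections of newborn pups, kept on inserts in medium with horse serum and human PDGF, and several slices were pooled when microglia were isolated. In vitro microglia were those released into the medium of flasks seeded with cortex of newborn pups, freed of meninges and grown with horse and fetal bovine serum. Culture and the age of the source animal therefore differ together between the adult group and every other group and cannot be told apart. The 2 libraries of a group are called biological replicates in the series, and p-values measure the spread between these libraries.

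Lysozymes cut the peptidoglycan of bacterial cell walls. Mice have a macrophage form encoded by Lyz2 and a form encoded by the neighbouring gene Lyz1 that is best known from Paneth cells of the intestine. Lyz2 is a general marker of macrophages, monocytes and neutrophils, and resident microglia express little of it. Slpi encodes secretory leukocyte protease inhibitor, which blocks neutrophil elastase and related proteases and is itself antibacterial, and Wfdc17 encodes a small secreted protein of the same WAP (whey acidic protein) domain family. Lcn2 encodes lipocalin 2, stored in neutrophil granules and induced in inflamed tissue, which binds bacterial siderophores and so withholds iron. Saa3 encodes a serum amyloid A made outside the liver, an acute phase protein made by macrophages and other cells after exposure to bacterial products.

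The genes lie on 4 chromosomes. In the GENCODE vM21 annotation of GRCm38, the assembly called mm10 in the submitters' processing notes, Lyz2 (chr10:117277331-117282321) and Lyz1 (chr10:117287797-117292868) are neighbours on the minus strand with 5475 bases between them. Slpi (chr2:164354070-164389095) and Lcn2 (chr2:32384633-32388252) lie on the minus strand of chromosome 2, Wfdc17 (chr11:83703991-83706268) on the plus strand of chromosome 11, and Saa3 (chr7:46711998-46715700) on the minus strand of chromosome 7. All 6 are protein coding. The bases before the transcription start are shown for the lysozyme pair, which shares much of its sequence but not its level, and for Slpi and Saa3, which each hold a match to a C/EBP motif. They come from RefSeq (GRCm38.p6), run 5′ to 3′ on the strand of the gene, stop before the first exon of any annotated coding transcript, and have motif matches in capitals. The stretches are chr10:117292869-117293118 for Lyz1, chr10:117282322-117282522 for Lyz2, chr2:164356508-164356757 for Slpi, which lies within the long annotated span of that gene, and chr7:46715701-46715926 for Saa3.
Lyz1: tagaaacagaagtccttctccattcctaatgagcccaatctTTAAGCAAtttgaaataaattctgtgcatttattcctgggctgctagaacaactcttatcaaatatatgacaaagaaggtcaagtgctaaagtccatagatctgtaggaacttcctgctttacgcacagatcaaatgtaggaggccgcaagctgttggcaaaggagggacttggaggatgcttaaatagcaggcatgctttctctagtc
Lyz2: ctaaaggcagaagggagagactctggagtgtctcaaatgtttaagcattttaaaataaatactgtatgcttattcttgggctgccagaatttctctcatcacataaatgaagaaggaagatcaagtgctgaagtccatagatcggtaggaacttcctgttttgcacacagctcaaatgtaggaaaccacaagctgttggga
Slpi: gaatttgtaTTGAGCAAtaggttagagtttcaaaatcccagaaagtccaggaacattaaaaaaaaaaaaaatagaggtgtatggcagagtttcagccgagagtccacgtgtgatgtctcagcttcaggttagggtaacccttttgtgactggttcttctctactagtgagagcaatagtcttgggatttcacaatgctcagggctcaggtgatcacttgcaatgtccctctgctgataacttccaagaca
Saa3: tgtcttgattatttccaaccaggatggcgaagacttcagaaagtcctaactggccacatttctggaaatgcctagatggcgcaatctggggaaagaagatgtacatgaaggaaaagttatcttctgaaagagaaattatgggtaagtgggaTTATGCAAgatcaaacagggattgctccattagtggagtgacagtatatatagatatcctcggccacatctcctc

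Motifs were searched on both strands over 300 bases, 250 before and 50 after the start, for all 6 genes. The C/EBP motif TTGCNNAA was found in Lyz1 (positions −209 to −202 from the start), Slpi (−241 to −234), Lcn2 (−216 to −209) and Saa3 (−99 to −92), and in 10.8% of the 32851 promoters of the same length. The PU.1 core GAGGAA was found in Wfdc17 and Lcn2, and in 28.3% of all promoters. The kappaB motif GGGNNTTCC, found in 5.82% of all promoters, was in none of the 6. Lyz2 held none of the 3 motifs in this window. Positions count from the RefSeq start. The last bases before it, 24 for Saa3 and 49 for Lyz2, overlap an annotated exon and are not printed above, though searched and aligned here. These matches are descriptions of letters. The 250 bases before the start of Lyz1 and of Lyz2 were 78.8% identical over their alignment, with 92% identity in the 100 bases next to the start.

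Depth and cell makeup differed between the libraries. After filtering, they held 61 to 3799 cells and 385373 to 39689540 UMIs, and the median cell held 1858 UMIs in adult replicate 2, the shallowest, and 13966 in in vitro replicate 2, the deepest. No 2 libraries shared more than 21 barcodes. Levels are given as CPM, the UMI count scaled to a common library total, after TMM scaling, and counts at transcript ends are not divided by gene length. Summed levels of marker lists, levels over both libraries of a group and the value of 3 UMIs are CPM without TMM scaling. A total of 3 UMIs corresponds to 0.0756 to 7.78 CPM, depending on the library. Each of 10 microglia markers was counted in every library, with a summed level of 51152 and 51956 CPM in adult libraries and 8653 to 30324 CPM in cultured ones. Slice libraries at 1 day and slice 1 week replicate 1 stood apart by neutrophil genes. The summed level of 13 neutrophil markers, which include none of the 6 genes, reached 7866 and 22561 CPM in the 1 day slices, with 40377 and 1054 CPM for those of 1 week, against 83.6 and 91.2 CPM for those of 3 weeks, 23.0 and 26.7 CPM in vitro and 181 and 213 CPM in adult libraries. Most of the adult sum came from 1 of these markers, Csf3r, with 2515 and 1199 UMIs. Csf3r was at 184 and 154 CPM in adult libraries and lower at 1 day, at 67.9 and 37.6 CPM. Retnlg, a defining neutrophil marker, had no UMI in the adult, in vitro or 3 week libraries. Neutrophil marker UMIs outnumbered microglia marker UMIs in 80 of 518 and 282 of 1014 cells at 1 day and in 49 of 148 and 1 of 61 cells at 1 week, and in no cell elsewhere. These are called neutrophil-dominated cells below.

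The genes fell into patterns that differed between the kinds of culture. Lyz2 and Wfdc17 were highest in vitro, Lyz1 was about as high in 1 week slices as in vitro, Slpi and Lcn2 were counted almost only in slices, and Saa3 differed by up to 65.4 times between replicates. All 6 genes passed the filter on low counts. Slpi and Lcn2 passed it through the slice libraries in which they were counted, so in vitro could only be lower than those slices, and such calls are descriptions and not support for a difference.

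**Figure D1:**
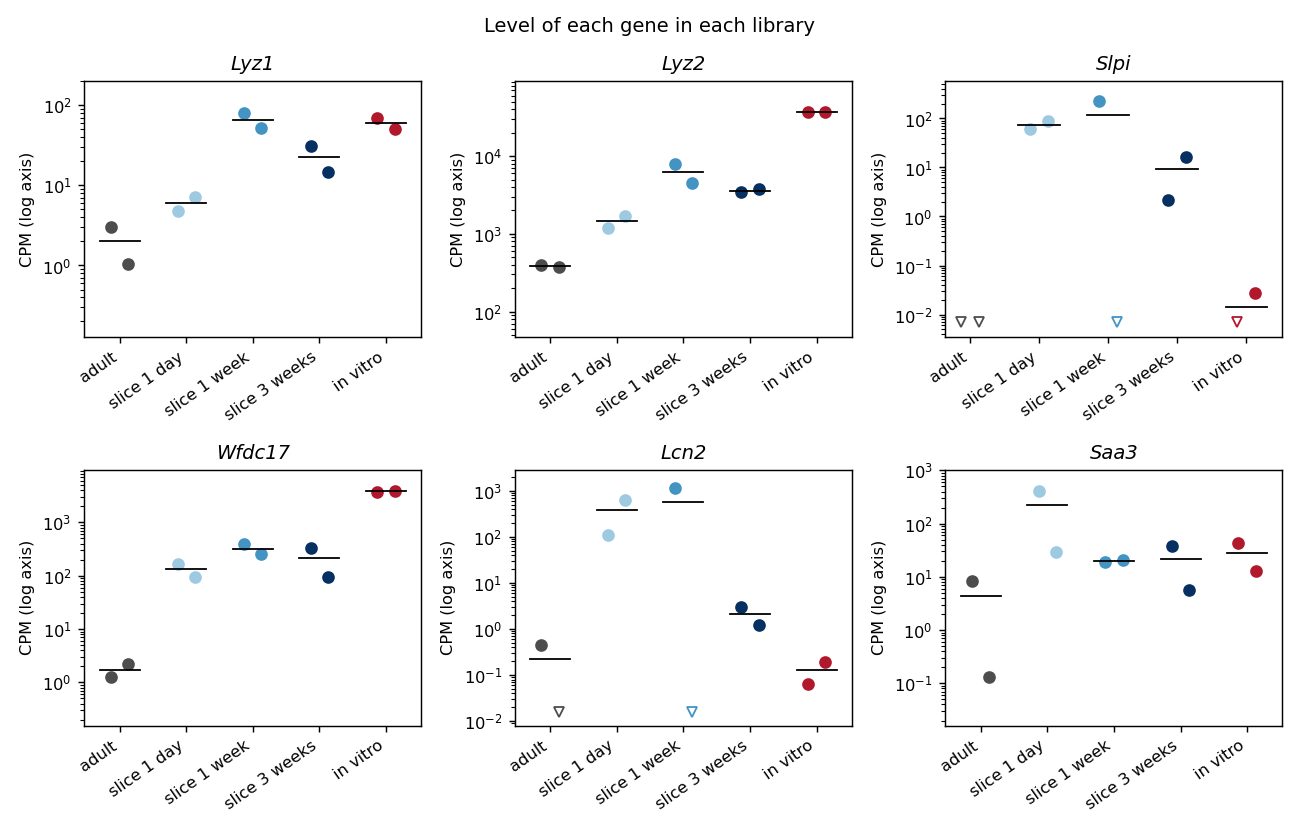
Level of each gene in each library, in CPM on a log axis, with the group mean as a line. Open triangles mark libraries without a UMI of the gene and have no value on the axis. Both in vitro libraries lie above all others for Lyz2 (36986 and 36561 CPM) and Wfdc17 (3711 and 3884 CPM), whereas Slpi and Lcn2 are highest in slices at 1 day and in 1 of the 2 libraries at 1 week.

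Among the cultured groups, edgeR called a gene at an adjusted p below 0.05 and a change above 1.5 fold. In vitro against slice 3 weeks, Lyz1, Lyz2 and Wfdc17 were higher and Slpi was lower, 3 and 1 of the 6 genes, where 13.3% of the 12157 tested genes were called higher and 19.9% lower. Against slice 1 week, in vitro Lyz2 and Wfdc17 were higher and Slpi and Lcn2 lower (6.2% of all genes called higher, 10% lower). In vitro against slice 1 day, Lyz1, Lyz2 and Wfdc17 were higher and Slpi and Lcn2 lower (13.3% of all genes called higher, 18.6% lower). Within slices, 1 week against 1 day called Lyz1 and Lyz2 higher and no member lower (4.91% of all genes called higher, 5.25% lower). The comparison of 3 weeks with 1 week called Lcn2 lower and no member higher (2.23% of all genes called higher, 3.49% lower). The comparison of 3 weeks with 1 day called Lyz1 and Lyz2 higher and Slpi and Lcn2 lower (13.9% of all genes called higher, 12.8% lower). The comparisons share libraries, so they are not independent of each other. Saa3 was called in none of them.

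**Figure D2:**
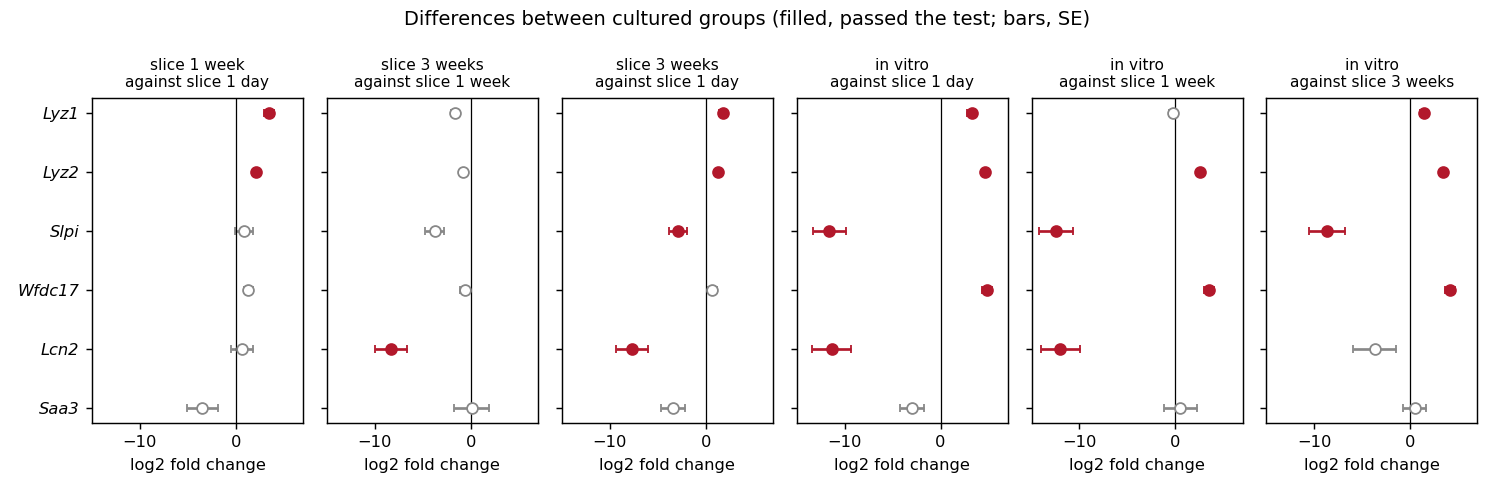
Fitted log2 fold change (x axis) of each gene in the 6 comparisons between cultured groups, the first named group against the second. Bars are standard errors, and filled points passed the test. The estimates for Lyz1, Lyz2 and Wfdc17 have short bars, and those for Slpi, Lcn2 and Saa3, which had few or no UMIs in some libraries, have bars of up to 2.24.

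Lyz2, the macrophage lysozyme, was at 399.8 and 379 CPM in the adult libraries, 1182 and 1702 CPM in slices at 1 day, 7992 and 4490.4 CPM at 1 week, 3408 and 3745 CPM at 3 weeks, and 36986 and 36561 CPM in vitro. No 2 groups overlapped. The mean in vitro level, 36773 ± 301 CPM (SD, n = 2), was 94.5 times the adult mean of 389 ± 14.9 CPM, and the slice means were 3.70 times the adult mean at 1 day, 16.0 times at 1 week and 9.19 times at 3 weeks. Lyz2 made up 3.39% and 3.28% of all UMIs in the in vitro libraries and 0.0441% and 0.0433% in the adult ones. The median cell held 423 and 439 Lyz2 UMIs in vitro and 1 and 0 UMIs in the adult libraries. In vitro exceeded every slice group, with a log2 fold change of 3.36 (SE 0.27, adjusted p = 1.29e-05, edgeR) against 3 weeks, 2.56 (SE 0.27, adjusted p = 0.000188) against 1 week and 4.67 (SE 0.29, adjusted p = 5.32e-06) against 1 day. Among slices, 1 week exceeded 1 day by 2.11 (SE 0.26, adjusted p = 0.0026) and 3 weeks exceeded 1 day by 1.31 (SE 0.25, adjusted p = 0.00417). The change from 1 week to 3 weeks, -0.80 (SE 0.25), did not pass (adjusted p = 0.0947), so these neighbours in the order were not separated, although without slice 1 week replicate 2 the change was -1.08 (adjusted p = 0.0393).

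Neutrophils also transcribe Lyz2, so its slice values were read beside the neutrophil genes. In slice 1 day replicate 2 and slice 1 week replicate 1, Lyz2 was at 4267 and 10583 CPM in the neutrophil-dominated cells and at 1052 and 6527 CPM in the other cells, whereas in slice 1 day replicate 1 it was at 1018 and 1247 CPM. These class levels are CPM over the UMIs of the class, without TMM scaling. With the neutrophil-dominated cells removed, a step chosen after seeing the data, the rise from 1 day to 1 week was 2.31 (adjusted p = 0.000281, edgeR) and that from 1 day to 3 weeks was 1.64 (adjusted p = 0.000251). With slice 1 day replicate 2 and slice 1 week replicate 1, the libraries richest in neutrophil genes, removed whole, each of these groups was left with 1 library, and the changes were 1.92 (adjusted p = 0.0846) and 1.60 (adjusted p = 0.0091). The in vitro excess over 1 day was then 5.01 and that over 1 week 3.08 (adjusted p = 0.00275).

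Lyz2 was also the most evenly spread of the genes among in vitro cells. It was counted in 100% of the cells of both in vitro libraries, and in replicate 1 the 10th and 90th percentiles of its UMIs per cell were 154.6 and 853.8. The 5% of cells with the most Lyz2 held 12.9% and 12.6% of its UMIs in vitro, against 31.0% and 32.3% in the adult libraries, and in slices 39.3% and 44.8% (1 day), 26.9% and 32.7% (1 week) and 30.6% and 34.3% (3 weeks). The low UMI number per cell outside the in vitro group adds counting noise to these shares. When every cell was thinned to 1500 UMIs, Lyz2 was counted in 40.1% and 39.9% of adult cells (59.4% and 44.4% before thinning), and, in slices, 59.5% and 71.5% of cells after 1 day, 97.9% and 91.1% after 1 week, and 92.1% and 90.7% after 3 weeks. Thinning left out 278 and 856 adult cells, 4 cells at 1 day and 7 and 5 cells at 1 week that held fewer UMIs. The share that free RNA gives was not read from a cell type that should lack these genes: no library held lymphocyte-marked cells, and oligodendrocyte-marked cells numbered at most 15 and neuron-marked cells at most 2 in a library.

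**Figure D3:**
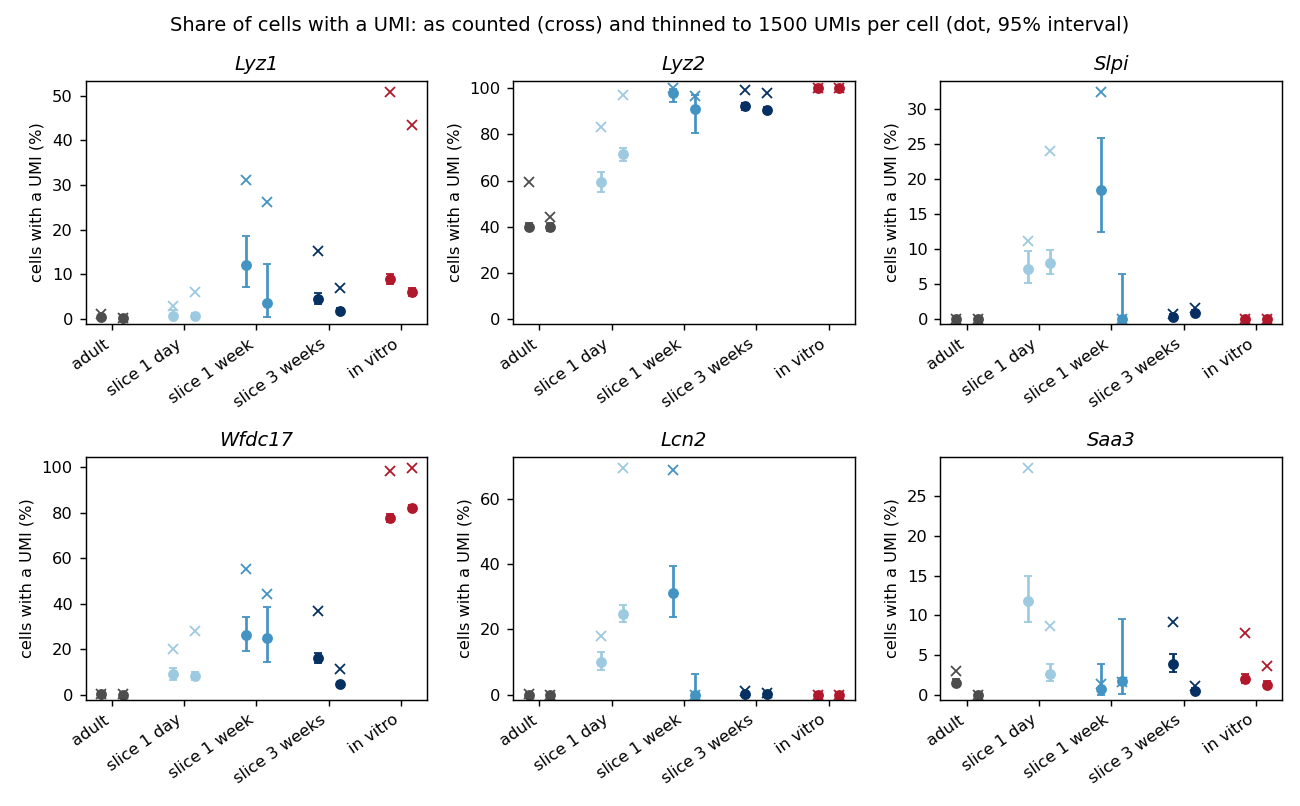
Percent of cells with at least 1 UMI of each gene in each library, as counted (cross) and after thinning each cell to 1500 UMIs (dot, with its exact 95% binomial interval, which covers counting error only). Lyz2 is in 39.9% or more of thinned cells everywhere, and Wfdc17 is in 77.7% and 82.2% of thinned in vitro cells and in 26.2% or fewer elsewhere.

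Within slices of each age, Lyz2 was higher in cells with at least 3 genes of a border macrophage list. At 3 weeks, the 43 such cells of replicate 1 were at 11833 CPM against 2998 CPM in the remaining cells, and the 100 such cells of replicate 2 were at 17922 CPM against 3123 CPM. The levels were 2219 against 1166 CPM and 2410.3 against 1662 CPM at 1 day, and 12089 against 6024 CPM and 9457 against 4028 CPM at 1 week. In adult replicate 1, 6 such cells held 313 of 5459 Lyz2 UMIs. In vitro, 95.6% and 96.1% of cells carried at least 3 of these genes, so the list did not single out a minority there, and Lyz2 was as high in the remaining cells (33372 and 34529 CPM) as in the marked ones (33935 and 32768 CPM). Without TMM scaling, the summed level of the list was 4735 and 4542 CPM in vitro, 475 and 390.0 CPM at 1 day, 579 and 356 CPM at 1 week, 211 and 161 CPM at 3 weeks, and 14.2 and 9.41 CPM in adult libraries. That of a monocyte list was 87.8 and 126 CPM in vitro and 168 to 1202 CPM in slices, against 9.71 and 17.6 CPM in adult libraries. Lyz2 was also higher in cells with at least 3 monocyte genes at 1 day, 4965 against 965 CPM and 3632 against 1108 CPM. In slice 1 week replicate 1 it was at 10099 against 6310 CPM. Such cells numbered 1 in slice 1 week replicate 2 and 1 and 4 in the 3 week libraries. The part of either list in the Lyz2 levels was not tested.

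P2ry12, a receptor gene that marks resident microglia, was highest in the adult libraries and lowest in vitro, the reverse of Lyz2, whereas within slices both genes were lowest at 1 day. It was at 6486 and 7398 CPM in the adult libraries, 155 and 77.0 CPM at 1 day, 426 and 402 CPM at 1 week, 978 and 818 CPM at 3 weeks, and 60.0 and 42.6 CPM in vitro. Cells with and without a P2ry12 UMI had similar Lyz2 levels in vitro, 32745 against 35000 CPM in replicate 1 and 31911 against 33395 CPM in replicate 2. In 3 week slices the cells without P2ry12 were higher, 4925 against 3157 CPM and 4218 against 3411 CPM. For levels summed over cells, a larger share of such cells and more RNA per cell cannot be told apart.

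Lyz1, the second lysozyme, was at 3.00 and 1.03 CPM in the adult libraries, 4.72 and 7.21 CPM at 1 day, 80.0 and 51.2 CPM at 1 week, 31.0 and 14.6 CPM at 3 weeks, and 68.4 and 50.4 CPM in vitro. The 1 week and in vitro libraries overlapped, and both groups were above all others. These values rest on 8 to 2129 UMIs per library. Group means were 29.4 times the adult mean in vitro, 2.96 times at 1 day, 32.5 times at 1 week and 11.3 times at 3 weeks. In vitro exceeded 3 week slices by a log2 fold change of 1.42 (SE 0.37, adjusted p = 0.0123, edgeR) and 1 day slices by 3.24 (SE 0.43, adjusted p = 0.00033), whereas the difference from 1 week was -0.22 (SE 0.42, adjusted p = 0.79) and changed sign with the setting, to 0.26 without both neutrophil-rich libraries. Lyz1 rose within slices from 1 day to 1 week by 3.46 (SE 0.50, adjusted p = 0.00387) and from 1 day to 3 weeks by 1.83 (SE 0.44, adjusted p = 0.0113). Leaving out 1 library ended some of these calls: in vitro against 3 weeks without in vitro replicate 1 (adjusted p = 0.0707), 1 week against 1 day without slice 1 week replicate 1 (adjusted p = 0.103), and 3 weeks against 1 day without either 1 day library (adjusted p = 0.0619 and 0.0547). Without slice 3 weeks replicate 1, in vitro exceeded 3 weeks by 2.11 (adjusted p = 0.000726) and 3 weeks exceeded 1 day by 1.19 (adjusted p = 0.0265). The decrease from 1 week to 3 weeks, -1.63 (SE 0.44), did not pass (adjusted p = 0.0599), but did without slice 3 weeks replicate 1 (-2.20, adjusted p = 0.00843). Without both neutrophil-rich libraries the rises were 3.43 (adjusted p = 0.216) and 2.24 (adjusted p = 0.083), and without the neutrophil-dominated cells alone they were 3.73 (adjusted p = 0.00247) and 2.40 (adjusted p = 0.00296).

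The pair of lysozyme genes did not keep a fixed ratio. Lyz1 gave 0.745% (exact 95% interval 0.535 to 1.01) and 0.271% (0.117 to 0.534) of the summed Lyz1 and Lyz2 UMIs in adult libraries. In vitro it gave 0.185% (0.177 to 0.193) and 0.138% (0.131 to 0.144). Its share was 0.397% and 0.422% at 1 day, 0.992% (0.788 to 1.23) and 1.13% (0.690 to 1.73) at 1 week, and 0.903% (0.793 to 1.02) and 0.388% (0.346 to 0.433) at 3 weeks. Both in vitro shares lay below all others, and both 1 week shares lay above all others. Adult replicate 1 and slice 3 weeks replicate 1, whose study label is not that of the remaining 8 libraries, had more Lyz1 per Lyz2 than their partners. Annotated transcripts of the genes were 92.0% identical over 1317 aligned bases, with a longest shared run of 118 bases, and 93.8% identical over the last 300 bases, where these libraries are counted, with a shared run of 104 bases. Reads from such runs cannot be assigned to either gene, and a small share of Lyz1 UMIs in a library with much Lyz2 is uncertain for that reason.

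Wfdc17, the WAP domain gene, showed the widest gap between adult and cultured microglia among genes with adult UMIs in both replicates. It was at 1.25 and 2.19 CPM in adult libraries, from 17 UMIs in each, and at 3711 and 3884 CPM in vitro, 169 and 96.3 CPM at 1 day, 389 and 258 CPM at 1 week, and 333 and 94.2 CPM at 3 weeks. All slice libraries lay between the adult and in vitro ones, the 1 week libraries lay above those of 1 day, and the 3 week libraries overlapped both. Means were 2211 times the adult mean in vitro, 77.3 times at 1 day, 189 times at 1 week and 124 times at 3 weeks. In vitro exceeded 3 week slices by a log2 fold change of 4.16 (SE 0.54, adjusted p = 0.000245, edgeR), 1 week slices by 3.54 (SE 0.53, adjusted p = 0.00154) and 1 day slices by 4.84 (SE 0.56, adjusted p = 0.000144). The excess over 1 week was 3.93 (adjusted p = 0.0491) without slice 1 day replicate 2 and slice 1 week replicate 1, and 3.89 (adjusted p = 0.0515) without all cells that held 3 or more neutrophil genes. No difference between slice groups passed, with changes of 1.31 (adjusted p = 0.123) from 1 day to 1 week, -0.62 (adjusted p = 0.528) from 1 week to 3 weeks and 0.69 (adjusted p = 0.303) from 1 day to 3 weeks. Without the neutrophil-dominated cells, the first and last of these were 2.38 (adjusted p = 0.0105) and 1.75 (adjusted p = 0.0156) and passed. Slice 3 weeks replicate 1 moved several values, since without it the in vitro excess over 3 weeks was 5.42 (adjusted p = 1.94e-05), the change from 1 week to 3 weeks was -1.74 (adjusted p = 0.0172) and that from 1 day to 1 week 1.25 (adjusted p = 0.0196). Without slice 3 weeks replicate 2, 1 week exceeded 1 day (adjusted p = 0.0203) and 3 weeks exceeded 1 day by 1.34 (adjusted p = 0.0182). Of 646 Wfdc17 UMIs in slice 1 day replicate 1, 440 came from 24 of the 80 neutrophil-dominated cells.

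Wfdc17 was counted in most in vitro cells and in a smaller share of slice cells. It was counted in 98.5% and 99.6% of in vitro cells, with a median of 20 and 24 UMIs, and in 77.7% and 82.2% after thinning. The thinned share in slices was 8.95% and 8.19% after 1 day, 26.2% and 25% after 1 week, 16.2% and 4.87% at 3 weeks, and 0.227% and 0.112% in adult libraries. The 1% of cells with the most Wfdc17 held 9.28% and 8.25% of its UMIs in vitro, against 61.9% and 42.7% at 1 day and 41.6% and 63.4% at 3 weeks. At 1 week the same share was 20.6% in replicate 1, where 55.4% of cells held a Wfdc17 UMI, and in replicate 2, with 61 cells, 1 cell held 40.6% of them. Border macrophage-marked cells of 3 week slices were at 2329 CPM against 242 CPM in the remaining cells of replicate 1, and at 641 against 72.2 CPM in replicate 2. At 1 day the order was reversed, at 30.6 against 186 CPM and 55.7 against 102.4 CPM. Those values include the neutrophil-dominated cells, which were at 1866 and 214 CPM, against 60.1 and 66.9 CPM in all other cells. At 1 week the border macrophage-marked cells were at 519 against 316 CPM and 429 against 244 CPM. In vitro the same marking separated 3482 from 1249.6 CPM and 3549.96 from 1591 CPM. P2ry12 divided the cultures differently, since cells with a P2ry12 UMI were higher in Wfdc17 in vitro (3842 against 2995 CPM and 4211 against 3035 CPM) and lower in 3 week slices (275 against 724 CPM and 59.6 against 192 CPM).

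**Figure D4:**
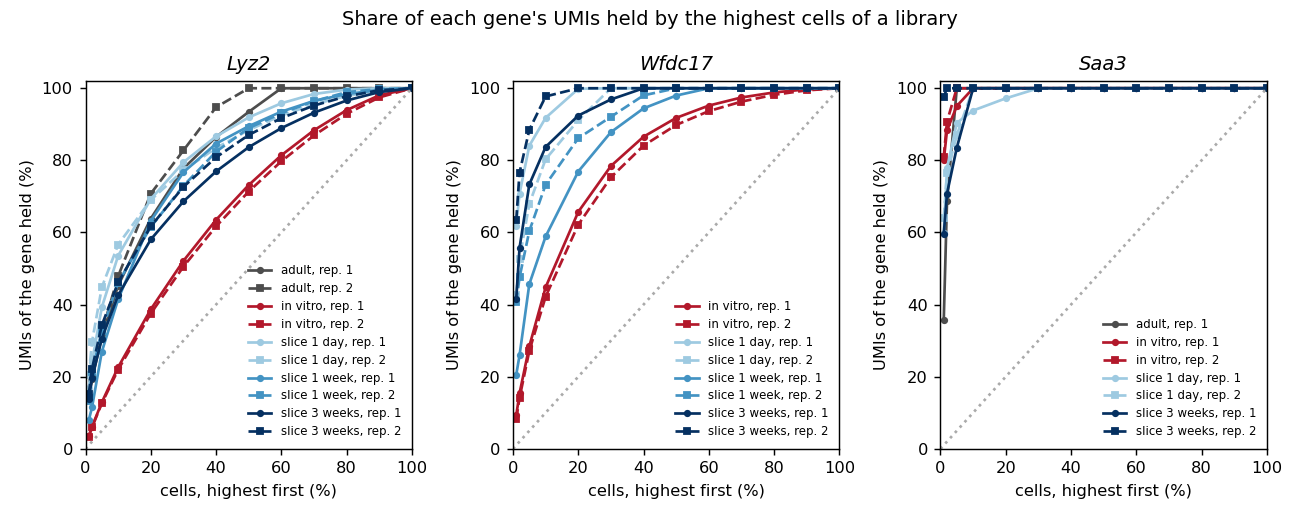
Cumulative percent of the UMIs of Lyz2, Wfdc17 and Saa3 (y axis) against the percent of cells ranked from most to fewest UMIs of that gene (x axis), 1 line per library. For Lyz2 and Wfdc17 the in vitro lines run lowest, with 12.9% and 28.4% of UMIs in the top 5% of cells of replicate 1, and for Saa3 nearly all UMIs lie in a few cells.

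Slpi, the WAP family inhibitor of neutrophil elastase, was not counted in adult cells, 0 of 3799 and 0 of 3527, which by the floor of 3 counts allows shares of up to 0.0790% and 0.0851% of cells with a Slpi UMI at this depth, and sets no limit on cells that express it. The in vitro libraries held 0 and 1 Slpi UMIs. Slices held 235 and 856 UMIs at 1 day (61.6 and 88.2 CPM), 235 and 0 UMIs at 1 week (232 and 0 CPM) and 17 and 345 UMIs at 3 weeks (2.20 and 16.1 CPM). Slpi UMIs thus lay almost wholly in slices, and the in vitro libraries overlapped the adult ones. Against a floor of 3 UMIs over the adult group, the level over both libraries of a slice group was at least 529-fold higher at 1 day (82.6 CPM), 1025-fold at 1 week (160.3 CPM, all from replicate 1) and 76.8-fold at 3 weeks (12.01 CPM). Relative to the single in vitro UMI, the slice level was 6087 times higher at 1 day (95% counting interval 1090 to 240626) and 884 times at 3 weeks (158 to 35019). In vitro was below the slices through which Slpi entered the fit, with an adjusted p that describes these libraries, at 1 day (adjusted p = 0.000867, edgeR), 1 week (adjusted p = 0.00153) and 3 weeks (adjusted p = 0.00569). The fitted log2 fold changes, -11.59, -12.43 and -8.69, depend on the prior count and are no bounds, and without slice 1 week replicate 1 no Slpi UMI was left at 1 week and that call was lost (adjusted p = 0.997). Within slices, 3 weeks was lower than 1 day by -2.91 (SE 0.92, adjusted p = 0.0403), a call lost without either in vitro library, either 1 day library or slice 3 weeks replicate 1 (adjusted p = 0.0532 to 0.169) and at -5.09 (adjusted p = 0.0196) without slice 3 weeks replicate 2, whereas 1 week against 1 day (0.84, SE 0.91, adjusted p = 0.62) and 3 weeks against 1 week (-3.75, SE 1.00, adjusted p = 0.062) did not pass. The latter passed without slice 1 week replicate 2 (adjusted p = 0.0217) or slice 3 weeks replicate 2 (adjusted p = 0.04).

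The Slpi level at 1 day and 1 week moved with the neutrophil genes. Slpi in slice 1 day replicate 1 was at 920.0 CPM in neutrophil-dominated cells and 5.25 CPM in the others, in replicate 2 at 298 and 33.9 CPM, and in slice 1 week replicate 1 at 781 and 43.6 CPM. Without the dominated cells, the group means fell from 74.9 to 19.2 CPM at 1 day and from 116 to 23.2 CPM at 1 week, and without every cell that held 3 or more neutrophil genes to 5.19 and 0 CPM. That stricter step left no cell of slice 1 week replicate 1 and 4 cells of slice 1 day replicate 2, and both libraries dropped out. The change from 1 day to 3 weeks was then 0.90 (adjusted p = 0.692), against -1.11 (adjusted p = 0.392) without the dominated cells alone. In vitro passed against neither 1 week (adjusted p = 0.994) nor 1 day (-7.75, adjusted p = 0.0565). At 3 weeks, no cell was neutrophil-dominated, Retnlg had no UMI, and Slpi was counted in 8 of 1153 and 61 of 3740 cells. There the ratio of Slpi UMIs to summed S100a8 and S100a9 UMIs was 0.654 and 15.7, against 0.00408 to 0.0106 inside and outside the dominated cells of the 3 neutrophil-rich libraries. The in vitro deficit against 3 weeks was called with and without those cells and libraries. Since in vitro could only be lower, these calls are descriptions and not support for a difference. The call was lost without slice 3 weeks replicate 2, which held 345 of the UMIs at 3 weeks against 17 in replicate 1.

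Lcn2, the siderophore-binding lipocalin, was near 0 outside 2 slice groups. Adult libraries held 6 and 0 UMIs, in vitro libraries 2 and 7, and 3 week slices 23 and 26 (2.98 and 1.21 CPM). Slices held 414 and 6247 UMIs at 1 day (109 and 644 CPM) and 1162 and 0 UMIs at 1 week (1148 and 0 CPM). Both 1 day libraries were above all adult, in vitro and 3 week libraries, whereas of the 1 week libraries 1 was the highest of all and the other held no UMI. The mean was 1711 times the adult mean at 1 day, 2613 times at 1 week, 9.53 times at 3 weeks and 0.593 times in vitro. In vitro was below the slices through which Lcn2 entered the fit, by a log2 fold change of -11.36 at 1 day (SE 2.00, adjusted p = 0.00167, edgeR) and -12.02 at 1 week (SE 2.03, adjusted p = 0.00302), values that depend on the prior count, and did not pass against 3 weeks (-3.69, SE 2.24, adjusted p = 0.218), though it did without both neutrophil-rich libraries (-3.66, adjusted p = 0.00801). Lcn2 was lower at 3 weeks than at 1 day by -7.67 (SE 1.67, adjusted p = 0.0071) and than at 1 week by -8.32 (SE 1.71, adjusted p = 0.0213), and neither passed without slice 3 weeks replicate 2 (adjusted p = 0.0572 and 0.113). Without slice 1 day replicate 2, the former was -5.87 (adjusted p = 0.0377). The change from 1 day to 1 week was 0.66 (SE 1.18, adjusted p = 0.785).

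Lcn2 also moved with the neutrophil genes. Its level in neutrophil-dominated and other cells was 1208 and 37.7 CPM in slice 1 day replicate 1, 2609 and 131 CPM in replicate 2, and 4087 and 145 CPM in slice 1 week replicate 1. Per summed UMI of S100a8 and S100a9, both abundant neutrophil genes, Lcn2 was at 0.0357 inside and 0.0384 outside the dominated cells of slice 1 day replicate 2 and at 0.0374 inside and 0.0353 outside those of slice 1 week replicate 1. That near constant ratio was not seen in slice 1 day replicate 1, at 0.0116 inside and 0.0709 outside. Without the dominated cells, the change against 1 day was -9.21 in vitro (adjusted p = 0.000212, edgeR) and -5.57 at 3 weeks (adjusted p = 0.00222). Without all cells that held 3 or more neutrophil genes, a step that dropped slice 1 day replicate 2, these were -7.88 and -4.15. Lcn2 entered the fit through slices that held it, so in vitro could only be lower. The in vitro values are descriptions and not support for a difference. The comparisons with 1 week rest on slice 1 week replicate 1. Without it, no Lcn2 UMI was left at 1 week, and the in vitro difference was 4.10 and that of 3 weeks 7.71, neither called.

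**Figure D5:**
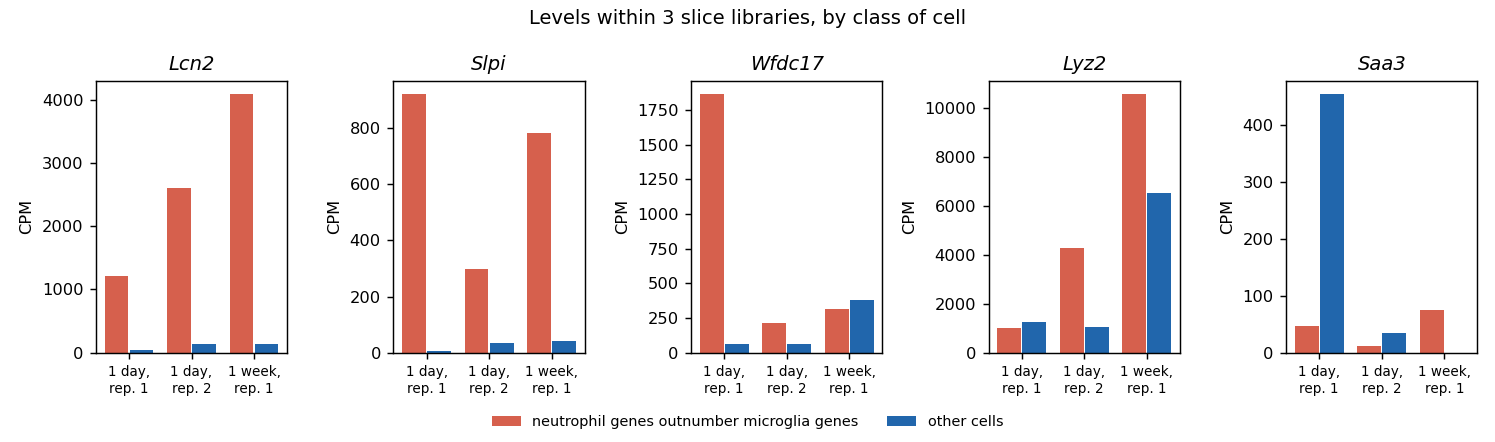
Level in CPM (linear axis from 0) in cells whose neutrophil marker UMIs outnumber their microglia marker UMIs and in all other cells, for 5 genes in slice 1 day replicates 1 and 2 and slice 1 week replicate 1. Lcn2 and Slpi are higher in the neutrophil-dominated cells of all 3 libraries (Lcn2 1208, 2609 and 4087 CPM), and Saa3 is lower in those of both 1 day libraries (46.6 and 11.9 CPM) but higher in those of the 1 week library (74.5 against 0 CPM).

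Cells that held both Slpi and Lcn2 were counted in each of the 3 neutrophil-rich libraries. In slice 1 day replicate 1, 35 cells held both, against 10.5 expected from their shares of cells. The counts were 197 and 169 in slice 1 day replicate 2, and in slice 1 week replicate 1 they were 38 and 33.1. Cells of a library share depth and free RNA, and these numbers are given as a description.

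Saa3, the acute phase gene, differed widely between replicates in every group but 1 week. It was at 8.42 and 0.129 CPM in adult libraries (115 and 1 UMIs), 42.9 and 12.8 CPM in vitro, 412 and 29.3 CPM at 1 day, 18.8 and 20.5 CPM at 1 week (19 and 8 UMIs), and 37.6 and 5.73 CPM at 3 weeks. Replicate 1 was higher in every group but 1 week, by 65.4 times in adult libraries, 3.36 times in vitro, 14.1 times at 1 day and 6.57 times at 3 weeks. Group means were 6.51 times the adult mean in vitro, 51.5 times at 1 day, 4.59 times at 1 week and 5.07 times at 3 weeks, and the adult SD of 5.87 CPM exceeded the adult mean of 4.28 CPM. No comparison between cultured groups passed in the model without covariates. The nearest were 3 weeks against 1 day, -3.40 (SE 1.26, adjusted p = 0.0642, edgeR), and in vitro against 1 day, -2.97 (SE 1.21, adjusted p = 0.0788). Both passed without slice 1 day replicate 2 (adjusted p = 0.0339 and 0.0319), which leaves the library with 412 CPM alone in its group, and the former also without slice 3 weeks replicate 1 (adjusted p = 0.033). With the study label as a covariate both passed as well, at -5.43 (adjusted p = 0.011) and -2.96 (adjusted p = 0.0323), so the call for Saa3 depends on the setting.

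Saa3 lay in few cells wherever it was counted. The 5% of cells with the most Saa3 held 95.1% and 100% of its UMIs in vitro, 90.4% and 87.0% at 1 day, and 83.5% and 100% at 3 weeks. In in vitro replicate 1, 1 cell held 434 UMIs, 32.5% of the total. Saa3 was lower in neutrophil-dominated cells at 1 day, 46.6 against 455 CPM in replicate 1 and 11.9 against 34.6 CPM in replicate 2. The order was the other way in slice 1 week replicate 1, where all 19 Saa3 UMIs lay in 2 neutrophil-dominated cells, at 74.5 against 0 CPM. In slice 1 day replicate 1, cells with a P2ry12 UMI held 1453 of its 1570 UMIs, at 816 against 62.2 CPM, and in replicate 2 the levels were 28.0 and 31.6 CPM. At 3 weeks it was higher in border macrophage-marked cells, 183 against 30.8 CPM in replicate 1 and 37.5 against 4.44 CPM in replicate 2. At 1 day the marked cells were at 337 against 435 CPM and 39.0 against 28.8 CPM, and at 1 week they held no Saa3 UMI. Erythroid genes moved with it between replicates, at 1852 and 0 CPM in adult libraries and 3463 and 0.734 CPM at 1 day, and at most 1.02 CPM elsewhere, and their part was not tested.

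Other genes of the same systems were read from lists chosen with earlier results of these data known, and each count is set beside the all-gene shares given above. Of 14 granule proteins of neutrophils, such as the calprotectin subunits S100a8 and S100a9, the cathelicidin Camp, lactoferrin (Ltf) and Ngp, 10 were tested. Genes such as S100a9 and Ngp, near 0 in vitro and at 3 weeks, reached the test through the 1 day and 1 week slices where they were high, so the following counts describe the tested genes and support no difference. In vitro was lower than 1 day for 10 of these 10 and lower than 1 week for 9, and 3 weeks was lower than 1 day for 10 and than 1 week for 9. The medians of log2 fold change were -11.85, -12.61, -12.10 and -12.83, against medians over all genes of -0.07, 0.00035, 0.05 and 0.06. None was called from 1 day to 1 week (median 0.48, all genes -0.01). S100a8 was at 7998 ± 4403 CPM (SD, n = 2) at 1 day and 9819 ± 13195 CPM at 1 week, against 1.91 ± 0.390 CPM in vitro and 2.06 ± 1.66 CPM at 3 weeks. In vitro against 3 weeks, 2 were called higher, the gelatinase Mmp9 (3.86 ± 3.16 against 0.210 ± 0.296 CPM) and the serine protease Prtn3 (3.42 ± 0.754 against 0.0699 ± 0.0988 CPM), both near 0 at 3 weeks, with a list median of 0.85 that becomes -0.12 with the 2 genes at 0 set to their bound. S100a8, S100a9, Camp, Ngp, Ltf and Mmp8 are also among the neutrophil markers, so this list and those markers are not separate evidence.

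Of 11 genes of the WAP list other than Slpi and Wfdc17, 4 were tested, and Spint1 and Spint2 among them encode Kunitz-type protease inhibitors. Wfdc18 was at 5.48 ± 0.114 CPM (SD, n = 2) in vitro and 0.111 ± 0.0256 CPM at 3 weeks. Spint1, an inhibitor of matriptase and hepatocyte growth factor activator, had the other order, at 0.413 ± 0.505 CPM in vitro and 60.7 ± 6.38 CPM at 3 weeks. A gene near 0 in a group, as Wfdc18, Spint1 and Wfdc21 were, entered the fit through the libraries that held it, so its calls against those libraries are descriptions, as are the following counts. In vitro against 1 week, 3 of the 4 were lower and 0 higher (median -7.85), and against 1 day 3 were lower and 1 higher (median -6.92). Wfdc21, a relative of Wfdc17, had no UMI in vitro and was at 153 ± 76.7 CPM at 1 day and 279 ± 395 CPM at 1 week, against 0.0233 CPM at 3 weeks. Its order of groups was that of Lcn2 and not that of Wfdc17.

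Of 15 acute phase genes other than Saa3, 9 were in the tables and 3 were tested. Hp, which encodes the haemoglobin-binding haptoglobin, was at 222 ± 59.4 CPM at 1 day and 182 ± 242 CPM at 1 week, against 0.694 CPM in vitro and 0.0466 CPM at 3 weeks. Hp entered the fit through the 1 day and 1 week slices, and its lower level in vitro and at 3 weeks is likewise a description. Cp, which encodes the ferroxidase ceruloplasmin, was higher in vitro than at 3 weeks (2.55, adjusted p = 0.0166, edgeR). Of 7 further lysozyme family genes 1 was tested, and it was called in no comparison.

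Of 10 genes of iron handling, the system in which lipocalin 2 acts, 8 were tested. In vitro against 3 weeks, 4 were higher and 2 lower (median 0.79, all genes -0.10), with 3 and 1 against 1 week (0.77) and 4 and 3 against 1 day (0.75). The light chain of ferritin, Ftl1, was at 37118 ± 1830 CPM in vitro and 14714 ± 956 CPM at 3 weeks (1.33, adjusted p = 9.35e-05, edgeR), and the heavy chain Fth1 rose likewise (1.46, adjusted p = 9.56e-05), as did the iron carrier Trf (0.85, adjusted p = 0.00685). Hmox1, the haem-degrading oxygenase, was highest at 1 day (1814 ± 172 CPM) and was lower at 1 week by -2.31 (adjusted p = 0.00352) and at 3 weeks by -2.38 (adjusted p = 0.000606). No gene of this list was called between 3 weeks and 1 week.

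Other macrophage effector genes changed in both directions. Of 17, 14 were tested, and in vitro against 3 weeks 5 were higher and 3 lower (median 0.74), with 0 and 3 against 1 week (0.20) and 4 and 3 against 1 day (-0.10). Nos2, among those lower against 1 week, was at 0 CPM in vitro and 1.48 ± 2.10 CPM (SD) at 1 week. In vitro could only be lower for it, so that call is a description. The lysosomal protease Ctsd was lower in vitro than at 3 weeks (-1.24, adjusted p = 0.000646, edgeR) and higher at 3 weeks than at 1 day (2.82, adjusted p = 5.78e-05). The pore-forming protein gene Mpeg1 was higher in vitro than at 1 day (1.60, adjusted p = 0.000176), and the cystatin Cst7 was higher at 3 weeks than at 1 week (4.47, adjusted p = 0.000666).

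Genes of inflammatory cytokines and their receptors, which induce acute phase genes such as Saa3 and Lcn2, were 11 tested of 14 and were mostly lower in vitro, with 1 higher and 7 lower against 3 weeks (median -1.18), 0 and 6 against 1 week (-0.81), and 0 and 8 against 1 day (-1.77). Of the 11, 1 had no UMI in vitro and could only be lower there, so any such call of it is a description. The shared receptor subunit of the interleukin 6 family, Il6st, was lower in vitro than at 3 weeks by -2.76 (adjusted p = 5.87e-06, edgeR) and the interferon gamma receptor Ifngr1 by -0.81 (adjusted p = 0.0116). Of 12 transcription factors, 11 were tested, with 0 higher and 3 lower against 3 weeks and 1 week and 0 and 4 against 1 day. Klf4, a factor of monocyte differentiation, was lower in vitro than at 3 weeks (-4.84, adjusted p = 6.45e-05), and so was the microglial factor Irf8 (-0.89, adjusted p = 0.00114). Cebpb, which encodes a C/EBP factor, was lower in vitro than at 1 day (-1.40, adjusted p = 0.00611) and lower at 3 weeks than at 1 day (-1.29, adjusted p = 0.0118). Cebpe, the C/EBP factor of late granulocytes, was at 0.122 CPM in vitro and 0.153 CPM at 3 weeks, against 38.0 ± 27.8 CPM at 1 day and 53.9 ± 69.1 CPM at 1 week, the slices through which it entered the fit. Spi1, which encodes PU.1, was lower at 3 weeks than at 1 day (-0.62, adjusted p = 0.00854).

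The genes whose log levels followed each member most closely over the 10 libraries, among 7333 genes, differed by member. Lyz2 was followed by Mvb12a (r = 0.9904), Selm (r = 0.9803) and Ms4a7 (r = 0.9799), a gene of border macrophages, and Wfdc17 by Akr1a1 (r = 0.9874) and again Ms4a7 (r = 0.9836). Lyz1 was nearest to Apoe (r = 0.9665), the lipid carrier. Lcn2 was nearest to Stfa3 (r = 0.9879) and Wfdc21 (r = 0.9848), and Slpi to Ccnd3 (r = 0.9546) and Lcn2 (r = 0.9399), over libraries of which 8 held Lcn2 and 6 held Slpi. The r values for Saa3 were lower, with Tank first (r = 0.9275). These correlations share 5 group means and the depth of the libraries, and were chosen as the highest of many.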

How the data were processed

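Single cell RNA was measured in 10 libraries of sorted mouse microglia, 2 in each of 5 groups taken from the submitters' labels. The deposited tables hold raw UMI counts per gene and cell, made by the authors with Cell Ranger 1.3.0 on mm10, the tool and build their processing notes name. Cells were kept with at most 5% of UMIs from mitochondrial genes, at least 400 genes and no more than 30000 UMIs, which left 19059 of 19637 barcodes. For slices at 1 week, 148 and 61 cells were kept, more than the study states, and the difference was not traced. Nearly all of the gap lies in replicate 1, where all 148 cells held 3 or more neutrophil genes. The Slpi and Lcn2 values at 1 week rest on that library. The study also names a t-SNE step to find outliers, which was not repeated here. Doublets were not called, and the UMI limit alone bears on them. Rows of 13 repeated symbols were summed (none a member), and a gene missing from a table was counted as 0.

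Counts were summed per library and tested with edgeR 4.0.16 (R 4.3.3): one quasi-likelihood model over all 10 libraries and 5 groups, TMM factors, and filterByExpr with a minimum count of 10, which kept 12157 genes. Calls needed a Benjamini-Hochberg adjusted p below 0.05 over all genes and a change above 1.5 fold. The biological coefficient of variation was 18.3%. Intervals are exact (Clopper-Pearson) at 95% and, like the floor of 3 counts, cover counting error only. Thinning drew 1500 UMIs per cell. The adult libraries entered the fit, which shares 1 estimate of spread.

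The 6 genes and all gene and marker lists were chosen with earlier results of these data known. The genes named are the members, up to 3 called genes per list with the highest average CPM, and for each member the 5 genes of at least 10 CPM on average most correlated in log2(CPM + 1). The genes printed from cells with and without a member's UMI were chosen after their values were seen. Alternatives changed the normalization, test (DESeq2 1.42.0), filters, covariates, cells or libraries. The scripts were tested on simulated data. Python 3.11.15 was used for the rest.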

Additional observations from a re-analysis of the deposited data

How the results depend on the processing

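Over 790 recomputed fold changes of the 6 genes, 684 kept their direction and side of the threshold, 45 came to pass, 25 ceased to pass and 36 changed sign. RLE factors, library size alone and all barcodes changed neither the direction nor the call of any member. The 36 sign changes all concerned values that involve 1 week slices, Saa3, or 3 weeks against 1 day for Slpi and Wfdc17. The number of the 6 genes called was 4 for in vitro against 3 weeks, 4 against 1 week and 5 against 1 day, 2 for 1 week against 1 day, 1 for 3 weeks against 1 week and 4 for 3 weeks against 1 day.

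In vitro against 1 week, 2 genes were called with only the 2 groups compared, 1 without cells with 3 or more neutrophil genes and 2 without both neutrophil-rich libraries. For 1 week against 1 day these were 5 with no filter on low counts, and 0 and 0 under the neutrophil settings. For 3 weeks against 1 week they were 3 with UMIs per cell, 3 with DESeq2, 4 with no filter, 2 with the study label as a covariate, and 0 and 0 under the neutrophil settings. For 3 weeks against 1 day both neutrophil settings gave 2. Leaving out 1 library gave 3 to 4, 2 to 4, 5 to 6, 1 to 3, 0 to 3 and 2 to 4 in the order above. The lowest values for 1 week came without slice 1 week replicate 1 and that for 3 weeks against 1 day without slice 1 day replicate 1. The 3 for 3 weeks against 1 week came without slice 1 week replicate 2 or slice 3 weeks replicate 1.

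Over all genes, calls went from 4034 to 7076 for in vitro against 3 weeks and from 1970 to 5412 against 1 week with UMIs per cell, and from 1235 to 767 for 1 week against 1 day. With no filter they were 3347 for in vitro against 1 week, 1979 for 1 week against 1 day and 1722 (from 695) for 3 weeks against 1 week. Without cells with 3 or more neutrophil genes they were 331 for in vitro against 1 week, 1798 (from 3875) against 1 day, 5 for 1 week against 1 day, 0 for 3 weeks against 1 week and 909 (from 3246) for 3 weeks against 1 day. Without both neutrophil-rich libraries these were 361, 2256, 6, 15 and 1398. Fewer libraries, 1 each at 1 day and 1 week, enter these fits. UMIs per cell moved the median of all genes by -0.46 to 1.08 (log2), library size alone by -0.181 to 0.0172. Lyz2 for 3 weeks against 1 day had an adjusted p of 0.137 with UMIs per cell, and Slpi 0.412 with DESeq2.

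Sign changes (log2 fold change), for which the cause was not tested, were as follows. For in vitro against 1 week, Lyz1 was 0.78 with UMIs per cell, 0.015 with no filter, 0.25 without cells with 3 or more neutrophil genes, 0.095 without neutrophil-dominated cells and 0.26 without both neutrophil-rich libraries. Without such cells and without both libraries, respectively, Slpi was 1.501 and 1.52 and Lcn2 4.12 and 4.14 in that comparison. For 1 week against 1 day they were -9.26 and -12.86 for Slpi and -12.00 and -13.67 for Lcn2, and for 3 weeks against 1 week 10.16 and 10.21 for Slpi and 7.86 and 7.81 for Lcn2. With no UMI of either gene left at 1 week, these values depend on the prior count. Without cells with 3 or more neutrophil genes, Slpi was 0.90 for 3 weeks against 1 day and Saa3 -0.073 for 3 weeks against 1 week. The study label gave Saa3 -1.94 for 3 weeks against 1 week and Wfdc17 -0.064 for 3 weeks against 1 day.

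With 1 library left out, in vitro against 1 week ranged from -0.30 to 0.31 for Lyz1, -13.40 to 1.49 for Slpi, -12.82 to 4.10 for Lcn2 and -0.46 to 1.29 for Saa3. For 1 week against 1 day the ranges were -13.08 to 1.54 for Slpi and -15.40 to 2.46 for Lcn2. For 3 weeks against 1 week they were -5.93 to 10.15 for Slpi, -9.20 to 7.71 for Lcn2, -1.74 to 0.090 for Wfdc17 and -1.69 to 1.03 for Saa3. Wfdc17 for 3 weeks against 1 day ranged from -0.50 to 1.34, and Saa3 for in vitro against 3 weeks from -0.63 to 2.36. A lone library left in a group was assumed to vary like the others.

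The replicate numbers did not pair the libraries (correlations of deviations from -0.154 to 0.22), and the replicate block gave 4, 4, 6, 3, 2 and 5 called genes in the order above. All-gene calls are not given here for the block, DESeq2, the study label, only the 2 groups compared or 1 library left out. Member counts under these settings are therefore not read as a result about the members. The block brought Saa3 past the threshold for in vitro (-2.28, adjusted p = 0.00787), 1 week (-3.43, adjusted p = 0.0292) and 3 weeks (-3.01, adjusted p = 0.00324) against 1 day. UMIs per cell brought it past in all comparisons but 3 weeks against 1 week. Wfdc17 for in vitro against 3 weeks ranged from 3.58 to 5.42 with 1 library left out and was 4.91 with the study label, and Lyz1 there was 2.07 with the study label. Levels under UMIs per cell are in another unit and were not computed, and 2 member values could not be fitted with only the 2 groups compared, since the gene was filtered out. Depth limits Slpi and Lcn2 most at 1 week, where replicate 2 had 61 cells.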

Other observations

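Cells that carried a UMI of a member were higher in other genes than cells of the same library that did not, and the genes that led differed between groups. These are values within single libraries after removal of neutrophil-dominated cells, in CPM of the summed cells, with no test, and the genes were chosen after their values were seen.

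In 3 week slices, the 106 cells with a Saa3 UMI in replicate 1 had Wfdc17 at 1031 CPM against 233 CPM in the remaining 1047 cells, Pf4, a platelet factor gene also expressed by border macrophages, at 143 against 53.5 CPM, and Ms4a7 at 163 against 78.7 CPM. The 41 such cells of replicate 2 had Wfdc17 at 991 against 79.5 CPM, Pf4 at 107 against 13.8 CPM, Ms4a7 at 348 against 78.7 CPM, the stress-induced cytokine Gdf15 at 299 against 16.0 CPM, and Spp1, which encodes osteopontin, at 5964 against 1146 CPM. Wfdc17, Pf4 and Ms4a7 were thus higher in Saa3-positive cells of both replicates. Cells with a UMI of any gene tend to be deeper, with median UMIs of 7941 against 5954 in replicate 1 and 6061 against 5260 in replicate 2.

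In adult replicate 1, the genes that stood out were others. Its 112 cells with a Saa3 UMI had the interferon-induced chemokine Cxcl10 at 227 against 32.7 CPM, the interferon-induced gene Ifit3 at 162 against 36.7 CPM and the chemokine Ccl12 at 865 against 301 CPM. Adult replicate 2 had 1 Saa3 UMI and allows no such reading.

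In slice 1 day replicate 1, the 49 cells with an Lcn2 UMI that were not neutrophil-dominated had Saa3 at 2687 against 151 CPM, the neutrophil-attracting chemokine Cxcl2 at 604 against 16.6 CPM and the chemokine Ccl5 at 2174 against 288 CPM, at like depth (median 7045 against 7070 UMIs). Slice 1 day replicate 2 did not show these genes: its 520 such cells differed from the remaining 212 by at most 1.45 times in the genes that led there, with none of the 3 among them, at unlike depth (median 10965 against 7216.5 UMIs). At 3 weeks, the 8 cells with a Slpi UMI in replicate 1 had the fatty acid binding protein gene Fabp4 at 371 against 9.55 CPM and Wfdc17 at 2268 against 312 CPM, and the 61 such cells of replicate 2 had the chemokine Ccl2 at 176 against 40.4 CPM, the fibronectin gene Fn1 at 319 against 146 CPM and Wfdc17 at 179 against 88.8 CPM.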
